A study of Rattus norvegicus with 16 samples.

Results

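The 10 genes described here encode the contractile apparatus of smooth muscle cells and of myofibroblasts, the contractile fibroblasts of healing tissue. They were taken by symbol from a count table of 14476 genes, and all 10 were in the table and passed the filter on low counts that left 12857 genes for testing. Smooth muscle cells wrap small arteries and veins, and their contractile genes share control by serum response factor and myocardin. Myofibroblasts switch on part of the same set, above all Acta2, under mechanical tension and TGF-beta. Des and Synpo2 are also abundant in skeletal muscle, so that their level in a mixed tissue can come from more than 1 kind of cell.

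The study examined the Masquelet technique, in which a cement spacer placed in a bone defect becomes wrapped in a sheath of tissue. In each of 4 Sprague-Dawley rats a plated osteotomy in 1 limb held a spacer of polymethyl methacrylate (PMMA) and that in the opposite limb stayed empty. Tissue was collected after 4 weeks. The 4 groups, each with 1 library per rat, were the induced membrane around the spacer (IM), the pre-fibrous non-union tissue of the empty osteotomy (PFNU), the bone adjoining the spacer (PMMA bone) and the bone next to the defect without one (BNED). No group was free of surgery, and the sources used here give no age or sex. RNA was sequenced from whole tissue, so that fewer cells of a type and less RNA per cell cannot be told apart.

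Libraries held 40472228 to 76815879 counts. Levels are given in CPM, the count relative to library size after TMM scaling, and edgeR calls are those with an adjusted p under 0.05. The 13 bone cell genes took 7.52 to 11.9% of counts in PMMA bone and 2.85 to 6.93% in BNED, against 0.592 to 4.51% in IM and 0.967 to 3.45% in PFNU. Skeletal muscle genes took 2.36 to 21.8% of counts in IM, 6.62 to 16.2% in PFNU, 0.224 to 1.39% in PMMA bone and 0.414 to 4.74% in BNED. The PMMA bone library of rat 1 stood apart from the other 3: erythroid genes, which mark blood and marrow, took 8.27% of its counts against 0.462 to 1.40% in those 3 and 4.37 to 7.69% in BNED.

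Across the 4 tissues 7 genes kept a single order of mean level, with IM highest, then PFNU, PMMA bone and BNED. They were Acta2, Actg2, Myh11, Myl9, Tagln, Cnn1 and Lmod1. The ratio of the highest group mean to the lowest ran from 3.97 for Myl9 to 17.4 for Actg2. In all 7 the ranges of IM and PFNU overlapped. The ranges of PFNU and PMMA bone did not overlap for Acta2, Actg2, Myh11 and Lmod1, nor for Synpo2 and Des, and 15.8% of all genes were higher in PFNU without overlap. The ranges of PMMA bone and BNED overlapped for all 10 but Actg2, a share near the 12% of all genes that were higher in PMMA bone without overlap. Smtn and the pair of Synpo2 and Des had other orders, given below.

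**Figure D1:**
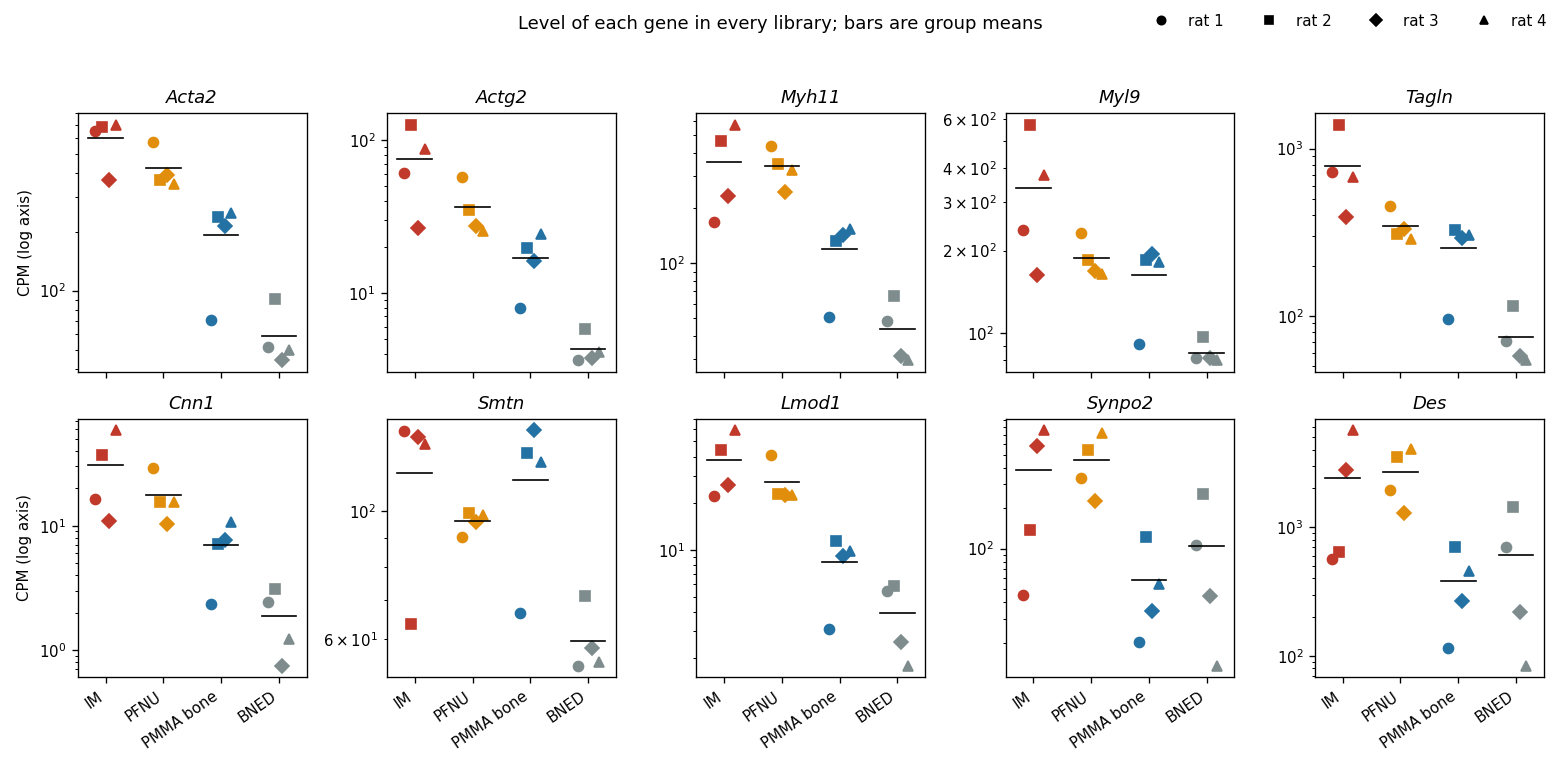
Level of each gene in each library, in CPM on a log axis, by tissue; the shape of a point marks the rat and the bar is the mean of 4 libraries. Acta2 averages 600.0 CPM in IM, 419.6 in PFNU, 193 in PMMA bone and 58.9 in BNED, and Des spreads widely within every tissue.

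Acta2 and Actg2 encode the smooth muscle alpha and gamma actins that form the thin filaments. Acta2 was at 654, 679, 368 and 699 CPM in the membranes of rats 1 to 4 and at 573, 367, 389 and 349 CPM in their PFNU. In bone it was at 70.7, 237, 215 and 248 CPM beside the spacer and at 51.7, 90.2, 44.1 and 49.6 CPM beside the empty defect. The membrane of rat 3 was low among the membranes, and the PMMA bone of rat 1 lay below the BNED library of rat 2. Actg2 was at 60.9, 126, 26.5 and 87.1 CPM in IM and at 57.7, 34.7, 27.6 and 25.6 CPM in PFNU. In bone Actg2 was at 7.96, 19.6, 16.3 and 24.4 CPM beside the spacer and at 3.61, 5.81, 3.72 and 4.09 CPM beside the empty defect. The lowest Actg2 level beside the spacer, in rat 1, lay above the highest beside the empty defect, in rat 2. Actins are near-identical in sequence, and their values are uncertain where shared reads were split between them or with skeletal actin.

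Promoter windows of the members were read for the CArG box, the binding motif of serum response factor, since 7 members shared an order across tissues. Windows of 300 bases were found in RefSeq (build GRCr8) for 6 members, Acta2, Actg2, Cnn1, Smtn, Synpo2 and Des. Of the 7 with the shared order, only Acta2, Actg2 and Cnn1 thus had one. Whether the annotated starts are those used in these tissues was not tested, and motifs outside the windows were not read. None of the 6 windows held the exact motif of 10 letters, which reads the same on both strands and occurs in 1.64% of 33469 windows. With 1 mismatch allowed, Acta2 held a pair of matches, CCCTATATGG at position -134 and CCTTGTTTGG at position -84 from the annotated start, and Smtn held CCTAAAATTG at position -110. Such a match occurs in 21.3% of all windows. The windows of Acta2 (chr1:241172454-241172753, minus strand), Smtn (chr14:82644465-82644764, minus strand) and Des (chr9:84299376-84299675, plus strand) are shown to set the gene with a pair of matches beside genes with 1 and none. Each runs 5′ to 3′ on the gene's strand, and capitals mark the matches.
Acta2: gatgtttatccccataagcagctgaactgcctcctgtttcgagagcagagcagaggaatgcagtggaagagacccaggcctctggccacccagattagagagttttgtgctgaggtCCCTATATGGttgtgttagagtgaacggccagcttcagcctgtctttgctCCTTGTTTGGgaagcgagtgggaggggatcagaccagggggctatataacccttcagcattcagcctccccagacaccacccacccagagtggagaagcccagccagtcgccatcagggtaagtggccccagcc
Smtn: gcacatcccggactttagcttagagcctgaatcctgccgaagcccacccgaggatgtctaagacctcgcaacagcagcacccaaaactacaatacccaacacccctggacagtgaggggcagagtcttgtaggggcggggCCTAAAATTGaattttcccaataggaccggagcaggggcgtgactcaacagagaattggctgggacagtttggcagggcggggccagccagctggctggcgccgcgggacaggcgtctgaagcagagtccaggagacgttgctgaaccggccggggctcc
Des: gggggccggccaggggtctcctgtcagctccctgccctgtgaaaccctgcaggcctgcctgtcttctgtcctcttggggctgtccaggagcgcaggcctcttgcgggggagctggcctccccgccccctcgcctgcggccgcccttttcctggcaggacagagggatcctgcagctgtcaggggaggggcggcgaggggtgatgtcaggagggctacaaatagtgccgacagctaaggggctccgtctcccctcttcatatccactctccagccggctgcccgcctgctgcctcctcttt

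Myh11, the smooth muscle myosin heavy chain, is a marker of mature smooth muscle, and Myl9 is the regulatory light chain whose phosphorylation starts contraction. Myh11 was at 168, 464, 233 and 569 CPM in IM and at 438, 349, 245 and 322 CPM in PFNU. Its bone values were 50.7, 132, 142 and 154 CPM beside the spacer and 48.2, 66.5, 31.1 and 29.5 CPM beside the empty defect. The membranes thus lay on both sides of PFNU, and rat 1 had nearly the same level in its bones. Myl9 ranged over 163 to 572 CPM in IM, 165 to 232 in PFNU, 91.3 to 195 in PMMA bone and 79.9 to 97.1 in BNED.

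Tagln (transgelin), Cnn1 (calponin) and Smtn (smoothelin) bind actin filaments, and Lmod1 nucleates them in smooth muscle. Tagln was at 720.1, 1385, 390.1 and 675 CPM in IM and at 455, 311, 329 and 289 CPM in PFNU. Beside the spacer it was at 96.1, 326, 293 and 306 CPM and beside the empty defect at 71.0, 115, 57.3 and 54.2 CPM. The membrane of rat 2 held the highest Tagln level of all libraries. Cnn1 ranged over 11.0 to 58.7 CPM in IM, 10.3 to 29.1 in PFNU, 2.34 to 10.8 in PMMA bone and 0.748 to 3.07 in BNED. Lmod1 ranged over 22.1 to 59.1 CPM in IM, 22.6 to 40.9 in PFNU, 3.11 to 11.5 in PMMA bone and 1.79 to 5.82 in BNED. Smtn varied least between tissues, with group means of 117 ± 35.6 CPM in IM, 96.0 ± 4.12 in PFNU, 113 ± 31.9 in PMMA bone and 59.4 ± 8.09 in BNED (SD, n = 4 each). Its membrane level in rat 2, 63.6 CPM, lay below all PFNU libraries, while the same membrane was the highest of its group for Actg2, Myl9 and Tagln.

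Des encodes the intermediate filament protein desmin, and Synpo2 (synaptopodin 2, or myopodin) an actin-bundling protein of the Z-disc. Des was at 565, 637, 2760.1 and 5661 CPM in IM and at 1937, 3496, 1279.7 and 4070.3 CPM in PFNU. In bone it was at 116, 696, 267 and 458 CPM beside the spacer and at 703, 1426, 219 and 84.1 CPM beside the empty defect. Synpo2 was at 45.0, 137, 584 and 759 CPM in IM and at 337, 539, 227 and 719 CPM in PFNU. In PMMA bone it spanned 20.2 to 123 CPM and in BNED 13.5 to 256 CPM. The order of means for both genes was PFNU, IM, BNED and PMMA bone, and all neighbours in that order overlapped. Libraries rich in skeletal muscle genes were those rich in Des: the membranes of rats 3 and 4 gave those genes 16.5 and 21.8% of counts, against 2.36 and 4.48% in the membranes of rats 1 and 2.

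**Figure D2:**
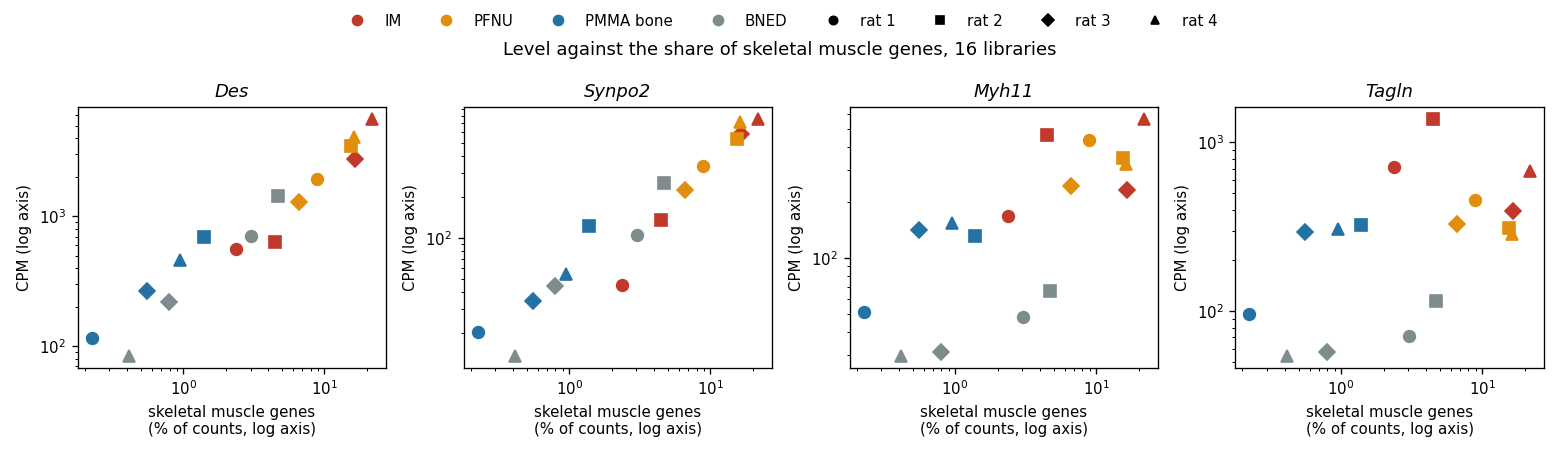
Level of Des, Synpo2, Myh11 and Tagln in CPM against the share of counts taken by skeletal muscle genes in the same library, both on log axes, for 16 libraries coloured by tissue with a shape for each rat. Des and Synpo2 lie along a single rising band through all 4 tissues, whereas Tagln lies higher in IM and PFNU than in BNED. Of those 2 defect tissues, only the membranes of rats 1 and 2 have muscle shares within the BNED range of 0.414 to 4.74%. All PFNU libraries have a larger share, of 6.62% or more.

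The co-variation of the members was described by Pearson's r of log2 CPM after removing group means, which leaves the differences between rats within a tissue. Among the 7 genes with a common order, r within groups was 0.68 to 0.93 over 21 pairs, and over the 16 libraries as they stand it was 0.87 to 0.98. Des and Synpo2 had r = 0.97 with each other within groups and 0.076 to 0.70 with those 7 genes. Against the mean of the skeletal muscle list, r within groups was 0.97 for Des and 0.93 for Synpo2, and 0.77 for Lmod1, 0.74 for Myh11 and 0.64 for Cnn1. It was 0.47 for Acta2, 0.44 for Smtn, 0.39 for Tagln, 0.29 for Myl9 and 0.24 for Actg2. Against the mean of the erythroid list, r within groups was -0.61 for Acta2, -0.60 for Smtn and -0.50 for Tagln, and -0.40 to -0.024 for the other 7. Over the 16 libraries as they stand it was -0.93 for Acta2, and -0.52 for Synpo2, the value nearest 0. Smtn had r of -0.11 to 0.52 with the other 9 members. All these points come from the same 16 libraries and share their scaling. The 7 genes were also grouped by their order of means in these libraries, which favours a high r over the 16 as they stand. The values are therefore a description only.

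**Figure D3:**
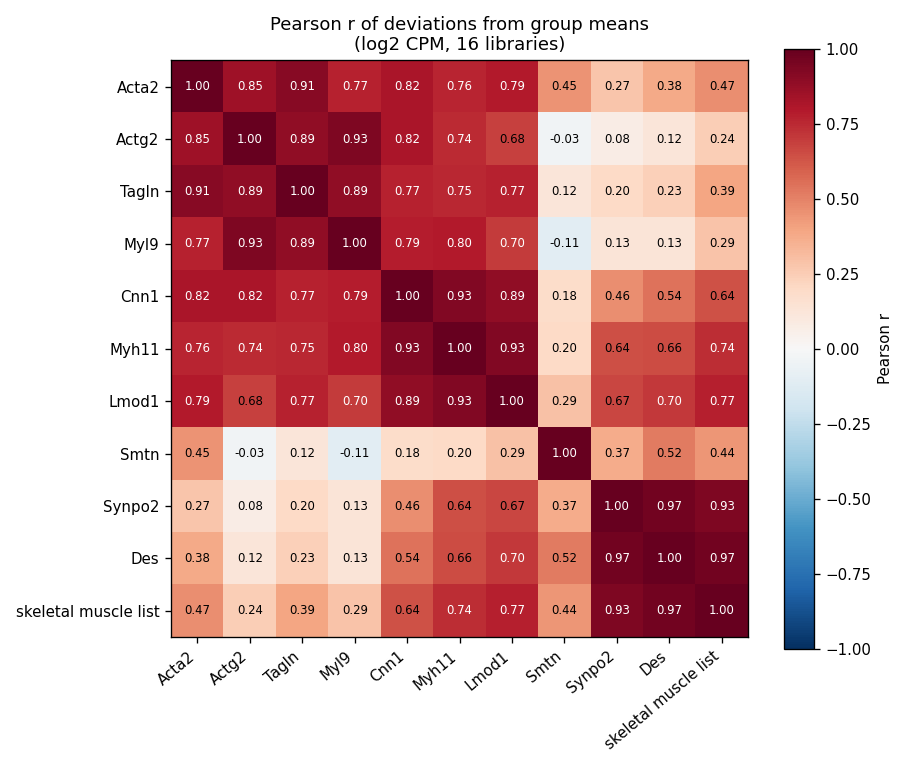
Pearson's r between deviations from the group means (log2 CPM, 16 libraries) for each pair of members and for the mean of the skeletal muscle list; red is positive and blue negative. The block from Acta2 to Lmod1 has r of at least 0.68, Des and Synpo2 pair with the skeletal muscle list, and Smtn stands outside both.

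Among the other genes tested, those most like Acta2 over 16 libraries were Cygb, Ehd2, Rem1, Tnfaip1 and PVR, with r of log2 CPM of 0.978 to 0.984. Those most like Des were Asb14, Hspb8, Trim55, Dusp23 and Unc45b, with r of 0.991 to 0.995. Cygb averaged 83.5 ± 18.7 CPM in IM, 59.7 ± 13.9 in PFNU, 29.5 ± 11.5 in PMMA bone and 12.5 ± 3.89 in BNED (SD, n = 4 each). Acta2 had the same order, but Cygb was chosen by its r with Acta2 over these libraries, so this is no separate result. Asb14 spanned 3.76 to 47.0 CPM in IM and 0.678 to 12.5 CPM in BNED.

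PMMA bone and BNED show how bone differs with and without a spacer next to it. Acta2, Actg2, Tagln and Smtn rose, by 1.91-fold for Smtn to 3.95-fold for Actg2, and no member fell. That is 4 of 10 members, where 3.51% of all 12857 genes were called higher. The log2 fold change was 1.71 for Acta2 (SE 0.36, adjusted p = 0.0250), 1.98 for Actg2 (SE 0.43, adjusted p = 0.0263), 1.78 for Tagln (SE 0.41, adjusted p = 0.0313) and 0.93 for Smtn (SE 0.24, adjusted p = 0.0421). With rat as a replicate block, which pairs both bones of an animal, Smtn had an adjusted p of 0.0652 and the other 3 were called. Each of the 4 genes was higher in PMMA bone than in BNED in 4 of 4 rats.

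The other contractile genes did not pass in this comparison. Log2 fold changes were 1.45 for Myh11 (adjusted p = 0.0560), 1.89 for Cnn1 (0.0718), 0.94 for Myl9 (0.0983) and 1.10 for Lmod1 (0.150). For Synpo2 and Des they were -0.86 (SE 0.86, adjusted p = 0.567) and -0.66 (SE 0.84, adjusted p = 0.657), with the 4 rats split in sign. Over the 10 members the median was 1.28, against -0.0087 over all genes tested. Skeletal muscle genes had a median of -1.65 over 21 genes in the same comparison, erythroid genes -1.13 over 12. All 13 bone cell genes had positive values (median 0.92), with none called. With the erythroid list as a covariate no gene of the whole table was called, members included, and Acta2 was at 1.03 and Smtn at 0.51. As given above, erythroid and bone cell shares differed between PMMA bone and BNED, apart from the erythroid share of rat 1. The make-up of the tissue and the presence of a spacer thus cannot be told apart in bone. With the skeletal muscle list as a covariate 8 members were called, and 1847 of all genes in place of 631.

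The difference between PMMA bone and BNED was not even between rats. For Acta2 the log2 ratio of PMMA bone to BNED was 0.45, 1.40, 2.28 and 2.32 in rats 1 to 4, and for Cnn1 it was -0.063, 1.20, 3.37 and 3.14. Rat 1, whose PMMA bone had the erythroid share of a BNED library, gave the lowest ratio for all 10 members. Without that library 8 members were called, all higher, with Myh11 at 1.70 (adjusted p = 0.00826) and Acta2 at 1.99 (adjusted p = 9.17e-04), and 2578 genes were called in all in place of 631. Among them were 12 of 12 erythroid genes, all lower in PMMA bone, where none was called with that library in. Without the PMMA bone of rat 2, 3 or 4 or the BNED of rat 1 or 3, edgeR called 0 of 12857 genes, and so no member. It called 3 members and 271 genes without the BNED of rat 2, and 2 members and 350 genes without that of rat 4. Log2 fold changes of Acta2 stayed at 1.56 to 1.99 throughout.

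**Figure D4:**
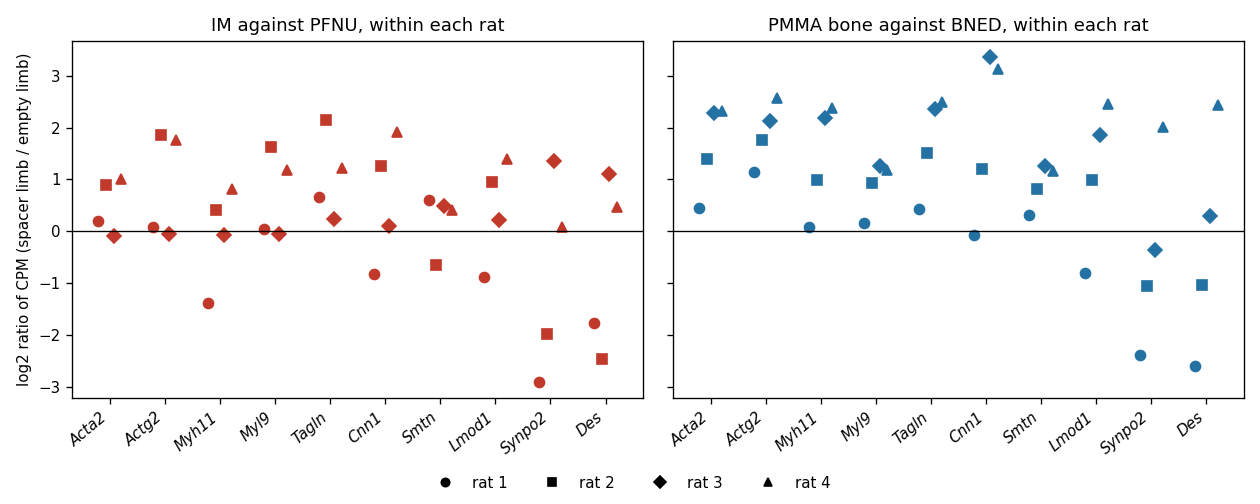
Log2 ratio of CPM between the spacer limb and the empty limb within each rat, for IM over PFNU on the left and PMMA bone over BNED on the right; each point is 1 rat. In bone, rat 1 lies lowest for every gene, and for Acta2 the ratios run from 0.45 to 2.32; in the defect, rats 2 and 4 exceed rats 1 and 3 for Actg2.

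IM and PFNU both fill or line the osteotomy, and differ in whether a spacer was present. No member was called by edgeR, DESeq2 or limma-voom, where edgeR called 0.863% of all genes. DESeq2 called 572 genes in all. Limma-voom called 0 of all genes, so its result says nothing particular to the members. At an unadjusted p under 0.05 edgeR had 3 of 10 members, against 15.5% of all genes, namely Tagln (log2 fold change 1.20, SE 0.41, adjusted p = 0.168), Actg2 (1.05, SE 0.42, adjusted p = 0.241) and Myl9 (0.85, SE 0.32, adjusted p = 0.220). Of these, Tagln was higher in the membrane in 4 of 4 rats and the other pair in 3 of 4. Log2 fold changes were 0.52 for Acta2 (SE 0.35, adjusted p = 0.525), 0.81 for Cnn1, 0.48 for Lmod1, 0.28 for Smtn and 0.084 for Myh11, with adjusted p of 0.532 to 0.955 for the last 4. The median over the 10 members was 0.50, against 0.012 over all genes.

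Membranes varied more than PFNU, in the members as in the libraries as a whole. Over all genes tested, log2 CPM of membrane pairs had r of 0.907 to 0.963, against 0.959 to 0.981 for PFNU pairs. For the 10 members the coefficient of variation was 26.0 to 99.6% in IM, lowest for Acta2 and highest for Des, against 4.29 to 48.4% in PFNU, and this difference in spread was not tested. Myh11 in rat 1 was lower in the membrane by a log2 ratio of -1.38, and in rat 4 higher by 0.82. Synpo2 and Des had log2 fold changes of -0.26 (SE 0.86) and -0.16 (SE 0.84), and both were lower in the membranes of rats 1 and 2 and higher in those of rats 3 and 4, as were the skeletal muscle shares. With the skeletal muscle list as a covariate they turned to 1.58 (adjusted p = 0.0412) and 1.67 (adjusted p = 0.0106). That list holds slow-fibre genes such as Myh7, at 3.31 to 9.14 CPM in IM and 528 to 3031 CPM in PFNU.

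The 2 differences between spacer and empty limb, in the defect and in bone, were compared as an interaction. No gene of the table was called by edgeR (0% of 12857), and so no member. Acta2 (-1.19, SE 0.50, unadjusted p = 0.0299, adjusted p = 0.508) and Myh11 (-1.37, SE 0.58, unadjusted p = 0.0310, adjusted p = 0.509) were the 2 members with an unadjusted p under 0.05, where 8.94% of all genes had one. Both had a smaller spacer difference in the defect than in bone in 4 of 4 rats. DESeq2 called no member and limma-voom called those 2, with 136 and 218 genes called in all.

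**Figure D5:**
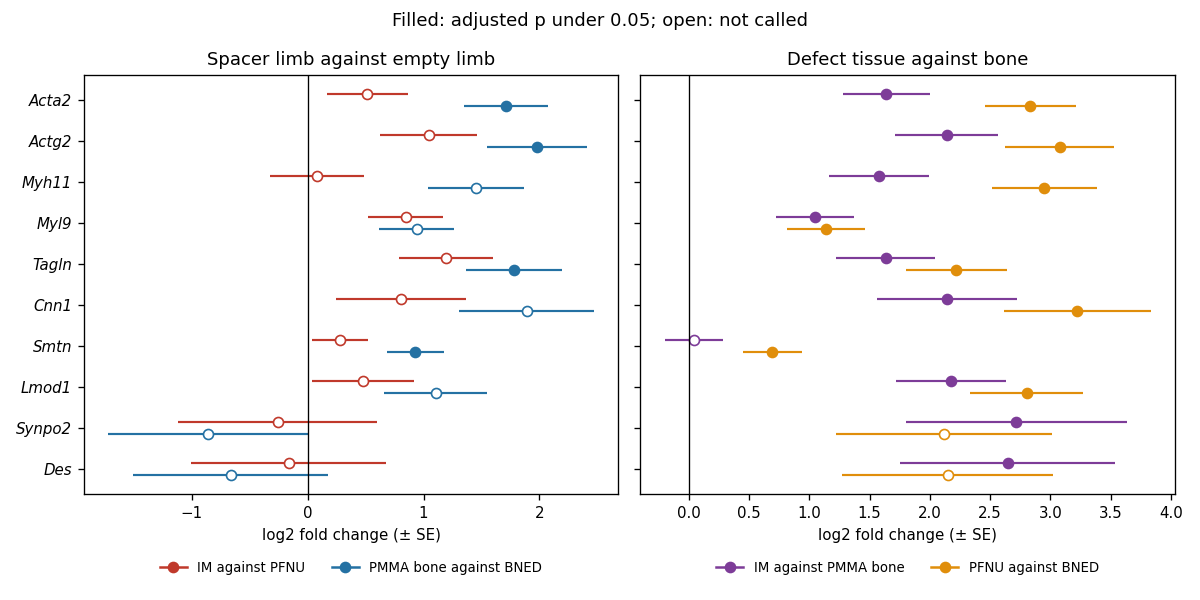
Log2 fold change with its standard error for each gene, from the edgeR fit of 16 libraries (4 per group), for the 2 comparisons of spacer with empty limb on the left and of defect tissue with bone on the right; filled points have an adjusted p under 0.05. On the left the filled points are Acta2, Actg2, Tagln and Smtn in bone; on the right Smtn is open for IM against PMMA bone, and Synpo2 and Des are open for PFNU against BNED.

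Within a limb, defect tissue was set against the neighbouring bone. In the spacer limb 9 of 10 members rose in IM relative to PMMA bone, where 11.3% of all genes were called higher. Log2 fold changes of the 7 genes with a common order ran from 1.05 for Myl9 (SE 0.32, adjusted p = 0.0311) to 2.18 for Lmod1 (SE 0.46, adjusted p = 0.00521). Synpo2 rose by 2.72 (SE 0.91, adjusted p = 0.0444) and Des by 2.65 (SE 0.89, adjusted p = 0.0446), beside a median of 4.44 over 21 skeletal muscle genes. Smtn had 0.043 (SE 0.24, adjusted p = 0.914), with the 4 rats split evenly in sign. The libraries of IM and PMMA bone did not overlap for 6 members, where 7.75% of all genes were higher without overlap. Of the 9 calls, 3 were left with the skeletal muscle covariate, in the fit of these 8 libraries alone and by limma-voom, and none with the erythroid covariate. Over all genes those fits called 1165, 908, 2779 and 1006, in place of 2860. Without the membrane of rat 4, 4 members and 1818 genes were called. With a muscle covariate that lacked slow-fibre genes, chosen after seeing the data, Synpo2 and Des turned to -2.49 and -2.35. Both were then called lower in IM, and no member was called higher.

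In the empty limb 8 of 10 members rose in PFNU relative to BNED, where 15% of all genes were called higher. Cnn1 rose by 3.22 on the log2 scale (SE 0.61, adjusted p = 0.00154), Actg2 by 3.08 (SE 0.45, adjusted p = 3.30e-04), Myh11 by 2.95 (SE 0.44, adjusted p = 3.50e-04) and Acta2 by 2.83 (SE 0.38, adjusted p = 2.05e-04). Tagln, Lmod1 and Myl9 rose by 2.22, 2.80 and 1.14. Smtn rose by 0.69 (SE 0.24, adjusted p = 0.0434), and with the replicate block its adjusted p was 0.0629. The 8 genes did not overlap between the groups, where 18.9% of all genes were higher without overlap. From this it follows that each was higher in PFNU in 4 of 4 rats. Synpo2 (2.12, SE 0.89, adjusted p = 0.0829) and Des (2.15, SE 0.87, adjusted p = 0.0732) did not pass. Erythroid genes took 0.0366 to 0.462% of counts in defect tissue and 0.462 to 8.27% in bone, so that the share of marrow and blood and the kind of tissue cannot be told apart in these 2 comparisons.

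Genes around the contractile apparatus were read from lists in the same fit. Of 13 pericyte genes, which mark the contractile cells around capillaries, 8 rose in PMMA bone relative to BNED, where 3.51% of all genes were called higher. None was called in IM relative to PFNU. Among the 8 were Ndufa4l2 (36.2 ± 12.5 against 8.99 ± 3.52 CPM, SD, n = 4 each, log2 fold change 2.01, SE 0.32, adjusted p = 0.0174), the adhesion molecule Mcam (1.14, adjusted p = 0.0224) and Rgs5, a regulator of G-protein signalling (1.21, adjusted p = 0.0230). Their median was 1.16, against -0.0087 over all genes, and in the interaction all 13 had negative values with none called. Of 27 other smooth muscle contractile and adhesion genes 4 were called higher in PMMA bone (median 0.44), including Kcnmb1, a potassium channel subunit of smooth muscle (1.81, SE 0.31, adjusted p = 0.0174), the creatine kinase Ckb (1.50, adjusted p = 0.0390) and the actinin Actn1 (0.84, adjusted p = 0.0480). With the replicate block, RLE size factors or no filter only Kcnmb1 and Ckb of the 4 were called, and with the block Actn1 had an adjusted p of 0.0647. Ckb averaged 1139.6 ± 530.5 CPM in PMMA bone and 402 ± 88.9 CPM in BNED (SD, n = 4 each), and it fell in IM relative to PMMA bone (-1.88, SE 0.39, adjusted p = 0.00487).

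Of 10 smooth muscle regulators only Tead3, a transcription factor of the Hippo pathway, was called higher in PMMA bone (0.95, SE 0.24, adjusted p = 0.0364), and with the replicate block for rat its adjusted p was 0.0547. Serum response factor (Srf) had 0.15 (adjusted p = 0.739) there and its cofactor Myocd -0.32 (adjusted p = 0.678), and values of regulators other than Tead3 were chosen after they were seen. In IM relative to PMMA bone 3 regulators were called higher, against 11.3% of all genes: Myocd (1.50, adjusted p = 0.0243), Srf (0.83, adjusted p = 0.0247) and Csrp1 (0.90, adjusted p = 0.0180). In PFNU relative to BNED 4 were, against 15% of all genes: Tead3, Myocd (1.54, adjusted p = 0.0158), Csrp1 and Tead1, while Srf had 0.57 (adjusted p = 0.0848). Of 14 myofibroblast matrix and adhesion genes 3 were called higher in PMMA bone (median 1.03), where 3.51% of all genes were. They were the collagen-binding integrin Itga11 (1.49, adjusted p = 0.0399), the matricellular protein Postn (1.41, adjusted p = 0.0482) and Lrrc15 (1.98, adjusted p = 0.0499). Only Itga11 was called with the replicate block, with RLE size factors or without the filter on low counts, and with the block Postn had an adjusted p of 0.0632 and Lrrc15 of 0.0573. In IM relative to PMMA bone that list had 1 of 14 higher and 2 lower, with a median of 0.071, against 11.3% of all genes called higher and a median of 0.030.

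Of 15 TGF-beta ligands, receptors and partners 5 were called higher in PMMA bone (median 0.74), where 3.51% of all genes were. Among the 5 were Tgfb3 (1.52, adjusted p = 0.0174), Ltbp3, which holds latent TGF-beta in the matrix (1.19, adjusted p = 0.0230), and Tgfb2 (1.00, adjusted p = 0.0262). Of 9 fibroblast genes 2 were called higher, Col3a1 (1.70, adjusted p = 0.0338) and S100a4 (1.13, adjusted p = 0.0480), and with the replicate block neither was (adjusted p = 0.0530 and 0.0720). Of 14 endothelial genes 5 were called higher, 3 with the block, led by the VEGF receptor Flt1 (0.99, adjusted p = 0.0195), Plvap (1.39, adjusted p = 0.0210) and Erg (0.82, adjusted p = 0.0250). No gene of the pericyte, fibroblast, endothelial, TGF-beta or myofibroblast lists was called by edgeR between IM and PFNU. Values were positive for 9 of 9 fibroblast genes (median 0.90) and 13 of 14 myofibroblast genes (median 0.89), against a median of 0.012 over all genes. DESeq2 called 4 myofibroblast, 2 fibroblast and 1 pericyte gene higher in IM, with 572 genes called in all. Limma-voom called no gene of these lists and no gene of the whole table. Skeletal muscle genes fell in IM relative to PFNU in 6 of 21 cases by edgeR, where 0.863% of all genes were called in either direction. They were led by the slow-fibre genes Myh7 (-7.52), Myl2 (-6.07) and Tnnt1 (-5.86), with adjusted p of 0.00778 to 0.0220. With the replicate block 4 of the 21 were called lower, those 3 among them, and 47 genes in all. DESeq2 called 7 lower, and 572 genes in all. Limma-voom and the fit of the 8 libraries of IM and PFNU called 0 of the 21 and 0 of all genes. In PMMA bone 1 of the 21 was called lower, as were 180 of all genes tested: the fast myosin Myh4 (-3.73, adjusted p = 0.0345), whose adjusted p was 0.0533 with the replicate block. Without the PMMA bone of rat 1, pericyte genes called in bone numbered 11 of 13 and endothelial genes 10 of 14, and 2578 genes were called in all. Without the PMMA bone of rat 2, 3 or 4 or the BNED of rat 1 or 3, no gene of the pericyte, endothelial, myofibroblast or TGF-beta lists was called higher.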

How the data were processed

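The authors deposited whole-number raw counts per gene symbol for 16 poly-A libraries, with no normalisation. FastQC 0.11.3, TopHat2 2.0.13, Bowtie2 2.2.1, DESeq2 and build rn5 are named, per the submitters' processing notes; the libraries were made with a stranded kit, per the labels' protocols, but the counting program, annotation and strand setting are not given in the sources used here, so values of overlapping and antisense genes and near-identical actins are uncertain. Group and rat came from each sample's own label. Counts were fitted with edgeR 4.0.16 in R 4.3.3 (TMM, filterByExpr, quasi-likelihood F-test, 1 model of 4 group means), with Benjamini-Hochberg adjustment over 12857 genes. Standard errors are the log2 fold change divided by the square root of F. DESeq2 1.42.0 and limma 3.58.1 (limma-voom with quality weights) were alternatives, and the fit was tested on simulated data. Log2 CPM for correlations used a prior count of 2.

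The members and the lists were chosen with earlier results of these data known. Named genes were all members, up to 3 called genes with the smallest adjusted p per list in each spacer comparison, and the 5 genes most like Acta2 and Des; exceptions are marked where they occur. The rat numbers mark the same animal, so the replicate block pairs the tissues. Deviations of same-rat libraries correlated at -0.35 to 0.50. In 8 of 24 same-rat pairs this r was higher than with any other rat of the second tissue. With only 4 rats a same-rat r can be the highest by chance, so this count does not show the pairing, which rests on the labels. The labels do not say that libraries within a rat were prepared separately. Replicates were compared before averaging (lowest chi-square per degree of freedom 75.6), and none agreed within sampling noise. Reads carry no molecular identifiers, so depth covers counting error only; the lowest member count was 37. Promoter windows ran from 250 bases before to 50 after the RefSeq start.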

Additional observations from a re-analysis of the deposited data

Results flagged for a closer look

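Within groups of 4 libraries, 7 of 40 combinations of gene and tissue held a value far from the other 3, where chance alone marks about 1 in 20. The 40 are not independent, since members vary together and 1 library can give several such values. An excess over chance therefore cannot be read from this count. Among membranes, rat 3 was low for Acta2 (368 CPM) and rat 2 was low for Smtn (63.6 CPM). Lmod1 was high in the PFNU of rat 1, at 40.9 CPM against 22.6 to 22.8 CPM in the other 3. Beside the spacer, Myl9 at 91.3 CPM and Tagln at 96.1 CPM were low in rat 1, the library with an erythroid share of 8.27%. In BNED, rat 2 was high for Acta2, at 90.2 CPM, and for Myl9, at 97.1 CPM, and that library had the highest skeletal muscle share of its group, 4.74%. The part of these shares in the levels was not tested.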

How the results depend on the processing

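The 10 members gave the same number of calls in all 5 comparisons with RLE size factors, without the filter on low counts, and with muscle, erythroid and Rn45s counts left out of the scaling. With a replicate block for rat the counts were 3 for PMMA bone against BNED and 7 for PFNU against BNED, in place of 4 and 8, through Smtn alone, and Myh11 in IM against PFNU turned to -0.036. Alternatives were set with earlier results known, and the covariate without slow-fibre genes was added after seeing these data.

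With the mean of the skeletal muscle list as a covariate, members called numbered 2 for IM against PFNU, 8 for PMMA bone against BNED and 3 for IM against PMMA bone. Without slow-fibre genes in it they numbered 9 for PMMA bone against BNED and 5 for PFNU against BNED, all higher. The interaction had 1, Des, with a negative value. IM against PMMA bone had 2, Synpo2 and Des, both lower in IM, so that none of the 9 higher calls of the main fit was left. The erythroid covariate, whose values nearly separate defect tissue from bone, left 0 calls for PMMA bone against BNED (in place of 4), IM against PMMA bone (9) and PFNU against BNED (8). Limma-voom called 8 for PMMA bone against BNED, 2 for the interaction and 3 for IM against PMMA bone, and the fit of only 8 libraries 3 for the last. Leaving out 1 library gave 0 to 8 for PMMA bone against BNED, 4 to 9 for IM against PMMA bone and 7 to 10 for PFNU against BNED. The exact CArG box was in 0 windows and that with 1 mismatch in 2.

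Des and Synpo2 changed sign most. In IM against PFNU the muscle covariate gave 1.67 and 1.58 (without slow-fibre genes 0.093 for Des), and leaving out a library -1.03 to 0.15 and -0.84 to 0.10. In PMMA bone against BNED it gave 1.19 and 0.99 (1.68 and 1.52 without slow-fibre genes), limma-voom 0.36 and 0.029, and leaving out a library -1.12 to 0.20 and -1.53 to 0.085. In the interaction values were -1.58 and -1.59 without slow-fibre genes, -0.57 and -0.27 by limma-voom, and -0.36 to 0.95 and -0.34 to 1.28 without a library. In IM against PMMA bone they were -2.35 and -2.49 without slow-fibre genes, and in PFNU against BNED -0.25 and -0.28 with the covariate and -0.76 and -0.90 without those genes. Myh11 in IM against PFNU was -0.080 with the erythroid covariate, -0.30 by limma-voom and -0.18 to 0.34 without a library. Smtn turned to -0.11 in IM against PFNU and -0.11 in PFNU against BNED with the erythroid covariate, and in IM against PMMA bone to -0.73 with it, -0.17 and -0.48 with the muscle covariates, and -0.14 to 0.25 without a library. Myl9 in the interaction was -0.47 to 0.14 without a library. The cause of these changes was not tested.

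Over all genes, IM against PFNU had 111 calls, PMMA bone against BNED 631, the interaction 0, IM against PMMA bone 2860 and PFNU against BNED 3884. Given in that same order, the calls were 680, 1847, 16, 1165 and 1538 with the muscle covariate, 242, 2162, 152, 981 and 1452 without slow-fibre genes in it, and 1, 0, 2, 1006 and 0 with the erythroid covariate. They were 572, 1527, 136, 3721 and 4751 by DESeq2 and 0, 6244, 218, 2779 and 6720 by limma-voom. IM against PFNU had 47 with the block. Fits of only the 8 libraries compared gave 0 for IM against PFNU, 1767 for PMMA bone against BNED and 908 for IM against PMMA bone.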
